A study of Mus musculus with 6 samples.

Results

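The BCL2 family genes *Bcl2a1a*, *Bcl2a1b*, *Bcl2a1d*, *Mcl1*, *Bcl2l1*, *Bcl2*, *Bcl2l11*, *Bid*, *Bbc3* and *Bax* were compared between untreated and LPS-stimulated neutrophils. They were chosen by gene symbol, and these 10 symbols account for 10 of the 38739 genes in the table. The cells were peritoneal neutrophils of cGAS-/- mice on the C57BL/6J background, so both groups lacked cGAS, the cytosolic DNA sensor that makes the second messenger cGAMP. Each group held 3 samples, and the cells received medium only (untreated) or LPS, a bacterial cell wall glycolipid that Toll-like receptors sense, over 2 h. The labels give the LPS dose as 500 ng/mL, while the methods of the paper give a lower dose for this experiment. No wild-type sample was analysed here, so the comparison is of LPS within the knock-out. Neutrophils were drawn into the peritoneum with thioglycolate before collection, and the sources do not say whether the samples came from separate mice, so the spread between them may be technical.

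BCL2 family proteins decide whether the outer membrane of the mitochondrion stays intact. The anti-apoptotic proteins bind and hold back the effectors that form pores in this membrane, and the BH3-only proteins counter them or activate the effectors directly. Neutrophils are short-lived cells, and A1 (the product of the *Bcl2a1* genes) and MCL1 are the members best known for keeping them alive, whereas BCL2 is low in mature neutrophils.

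The mouse has several copies of *Bcl2a1* on chromosome 9, and the sequences of the 3 that are members show how little separates them. In GRCm39 with GENCODE M39, *Bcl2a1a* (ENSMUSG00000102037) lies at chr9:88838953-88844472 on the plus strand, *Bcl2a1b* (ENSMUSG00000089929) at chr9:89081262-89089889 on the plus strand and *Bcl2a1d* (ENSMUSG00000099974) at chr9:88605338-88613967 on the minus strand. Over the 516 bases of the coding sequence, *Bcl2a1a* and *Bcl2a1b* differed at 11 bases (97.9% identity), *Bcl2a1a* and *Bcl2a1d* at 7 (98.6%), and *Bcl2a1b* and *Bcl2a1d* at 6 (98.8%). The first 120 coding bases, from the GENCODE M39 transcripts, hold 7 of the 12 positions at which at least 1 of the genes differs, and capitals mark these positions.
Bcl2a1a: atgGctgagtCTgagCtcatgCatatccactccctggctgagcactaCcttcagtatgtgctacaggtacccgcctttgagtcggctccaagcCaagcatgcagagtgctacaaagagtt
Bcl2a1b: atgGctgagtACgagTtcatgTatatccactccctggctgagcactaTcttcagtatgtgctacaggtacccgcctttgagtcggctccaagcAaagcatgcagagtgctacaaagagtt
Bcl2a1d: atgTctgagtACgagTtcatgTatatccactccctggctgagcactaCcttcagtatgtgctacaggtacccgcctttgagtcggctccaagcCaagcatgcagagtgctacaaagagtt
From coding base 95 to base 311 the stretch of 217 bases between differing positions was identical in all of them, so that a fragment lying wholly within it does not tell which copy it came from. Of the 31-base words in the transcripts of each gene, the unit by which kallisto assigns reads by default, 21.8% of those of *Bcl2a1a*, 14.0% of those of *Bcl2a1b* and 13.1% of those of *Bcl2a1d* occurred in no other gene. The division of reads among the copies is therefore uncertain. The sum of their values also moves with this division, because each value is a mean over the transcripts of its gene. GENCODE M39 annotates 2 transcripts for *Bcl2a1a* and 4 each for *Bcl2a1b* and *Bcl2a1d*.

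The stretches before the *Bcl2a1* starts were also near copies of one another. The RefSeq promoter table (GRCm38.p6) gave the bases from -250 to -91 relative to the start, at chr9:88956670-88956829 (plus strand) for *Bcl2a1a*, chr9:89199023-89199182 (plus strand) for *Bcl2a1b* and chr9:88731941-88732100 (minus strand) for *Bcl2a1d*. They are shown because these genes had higher values together. Capitals mark matches to GAGGAAGT, a word that the myeloid factor PU.1 can bind, and to TGANTCA, the AP-1 word.
Bcl2a1a: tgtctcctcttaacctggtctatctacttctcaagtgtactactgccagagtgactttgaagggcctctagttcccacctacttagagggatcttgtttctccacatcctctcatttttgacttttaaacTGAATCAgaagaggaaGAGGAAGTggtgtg
Bcl2a1b: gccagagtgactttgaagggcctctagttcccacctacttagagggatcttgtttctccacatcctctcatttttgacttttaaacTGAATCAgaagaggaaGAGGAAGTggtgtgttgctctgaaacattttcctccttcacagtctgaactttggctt
Bcl2a1d: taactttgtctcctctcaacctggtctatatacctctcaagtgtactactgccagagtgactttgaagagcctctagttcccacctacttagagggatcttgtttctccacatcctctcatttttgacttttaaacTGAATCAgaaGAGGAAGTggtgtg
The PU.1 word began at base -104 in *Bcl2a1a* and *Bcl2a1d* and at -148 in *Bcl2a1b*. It was found in 2.44% of 32851 promoter windows of 250 bases, both strands searched. The AP-1 word began at -120, -164 and -114 in *Bcl2a1a*, *Bcl2a1b* and *Bcl2a1d* and was found in 6.75% of the windows. The words did not overlap. Neither was matched in the window of any other member, and the κB word GGANTTTCC (1.07% of windows) and the STAT word TTCNNNGAA (7.02%) were matched in none of the 10 genes. The C/EBP word TTGCNNAA (9.56%) was matched only in *Bid*. Other forms of these words and sites outside the 250 bases were not searched, so a missing match does not show that a site is absent. The 160 bases shown for *Bcl2a1b* occur at 2 places on chromosome 9 of GRCm39, of which the other lies just before *Bcl2a1a*.

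Values are given on the deposited scale, TPM (a length-corrected share of the transcripts in a library), as the mean of the transcripts of each gene after scaling of each sample. Log2 fold changes are on the log2(value + 1) scale with the standard error (SE) of limma, and p values are Benjamini-Hochberg adjusted over the 23049 genes tested. A gene was called where its unadjusted p was under 0.01 and its log2 fold change was above 2 or below -2, which are the limits used in the paper. The number of reads per sample is unknown. The scale itself differed between the groups: protein-coding genes took 21.0% to 28.3% of the summed value in untreated samples and 49.7% to 58.9% after LPS, and protein-coding genes with a mean of at least 1 (n = 5894) had a median log2 fold change of 0.37 against 0.01 for all genes tested. For this reason members are also given after scaling each sample to its protein-coding sum, which brought these medians to 0.01 and -0.04. *Cgas* was between 0.0286 and 0.307 in all samples. With no wild-type sample beside them, these values do not check the genotype.

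All 10 members had a higher mean after LPS, and none had a lower one. None was called by the limits of the paper in the limma fit on log2 values, at which 1.69% of all genes tested were called higher (389 genes) and 1.31% lower (301 genes). With voom, the method that the paper names, applied to these values although they are not counts, 6 members passed the same limits: *Bcl2a1a*, *Bcl2a1b*, *Bcl2a1d*, *Bcl2l1*, *Bcl2l11* and *Bid*. That fit, added after seeing the data, called 1552 genes higher and 177 lower. In the limma fit on log2 values, at an adjusted p under 0.05 with no fold limit the count of members was also 0, against 0.894% of genes higher and 0.946% lower. At an unadjusted p under 0.05, 6 members were higher and 0 lower, against 10.3% of all genes higher and 6.66% lower, and against 20.5% of the protein-coding genes with a mean of at least 1. In 7 members the lowest LPS sample exceeded the highest untreated sample, which was so for 13.1% of all genes (9.75% lower) and 24.6% of the protein-coding genes. The median log2 fold change of the members was 1.80. *Bcl2a1a*, *Bcl2a1b* and *Bcl2a1d* are among both the 6 and the 7. They share most of their sequence, so they are not separate results in these counts or in the median.

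**Figure D1:**
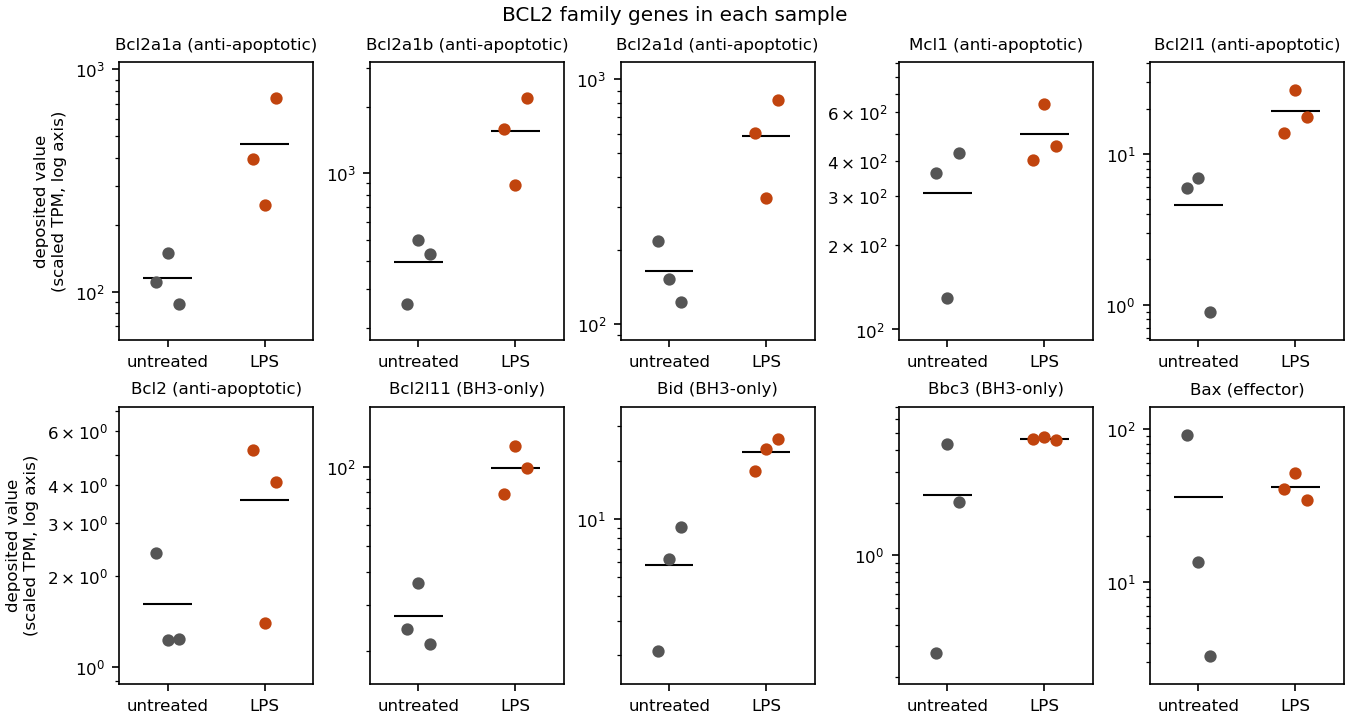
Deposited value (scaled TPM, log axis with its own range in each panel) of the 10 BCL2 family genes; each point is 1 sample, and the line is the group mean (n = 3 untreated, n = 3 LPS). The groups do not overlap in 7 genes and overlap in *Mcl1*, *Bcl2* and *Bax*.

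Scaled to the protein-coding sum, all 10 members still had a positive log2 fold change, with a median of 1.31. Then 5 members were higher at an unadjusted p under 0.05 (11.7% of protein-coding genes with a mean of at least 1), and the groups did not overlap in 5 (14.2%). *Bcl2a1d* and *Bbc3* overlapped on this scale. *Bcl2a1a* and *Bcl2a1b*, which are not separate results, are among the 5 in both counts. Over all genes tested this scaling called 220 higher and 522 lower. The sign of every member's log2 fold change was thus the same on both scales, and its size was not. For *Bax* this does not hold of the means. On the protein-coding scale *Bax* was 119, 13.9 and 4.45 in untreated samples and 38.6, 36.2 and 32.6 after LPS. Its mean on that scale was thus lower after LPS.

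Among the anti-apoptotic genes, *Bcl2a1b* had the highest mean in both groups, and the groups did not overlap in any of the *Bcl2a1* genes. *Bcl2a1b* was 255, 499 and 433 in untreated samples 1 to 3 and 1582, 882 and 2194 in LPS samples 1 to 3. The groups did not overlap, and LPS sample 2 was the lowest of its group. The mean changed from 396 ± 126 to 1553 ± 656 (SD, n = 3 each), a log2 fold change of 1.93 (SE 0.46, adjusted p = 0.101). *Bcl2a1a* was 110, 149 and 87.7 in untreated samples and 395, 246 and 745 after LPS. Its groups did not overlap, and its log2 fold change was 1.88 (SE 0.48, adjusted p = 0.113). *Bcl2a1d* was 218, 152 and 123 in untreated samples and 606, 326 and 822 after LPS. Its log2 fold change was 1.76 (SE 0.44, adjusted p = 0.110), and LPS sample 2 was again the lowest of its group. Without LPS sample 2 all of these *Bcl2a1* genes passed the limits of the paper, with log2 fold changes of 2.26 (*Bcl2a1a*), 2.29 (*Bcl2a1b*) and 2.14 (*Bcl2a1d*). Without LPS sample 3 these fell to 1.46, 1.63 and 1.47 (adjusted p = 0.252 to 0.294). On the protein-coding scale their log2 fold changes with all samples were 1.38, 1.43 and 1.26.

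Since the copies share most of their sequence, their values were also summed. The sum was 583, 801 and 644 in untreated samples and 2584, 1455 and 3760 after LPS. The groups did not overlap: the lowest LPS sample was 1.82 times the highest untreated sample, and the means differed 3.85-fold (676 ± 112 and 2600 ± 1153, SD, n = 3 each). *Bcl2a1b* made up 43.8% to 67.3% of the sum in untreated samples and 58.3% to 61.2% after LPS. *Bcl2a1a* held 13.6% to 18.9% and 15.3% to 19.8%, and *Bcl2a1d* 19.0% to 37.3% and 21.9% to 23.5%. The shares overlapped between groups for each copy. They are shares of means over transcripts, with 2 annotated for *Bcl2a1a* and 4 each for the others, and not shares of the *Bcl2a1* transcripts present. *Gm29094*, annotated on the same strand, shares 401 of the 826 exonic bases of *Bcl2a1b*, and it was 9.13, 23.6 and 25.9 in untreated samples and 60.9, 26.5 and 71.0 after LPS.

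**Figure D2:**
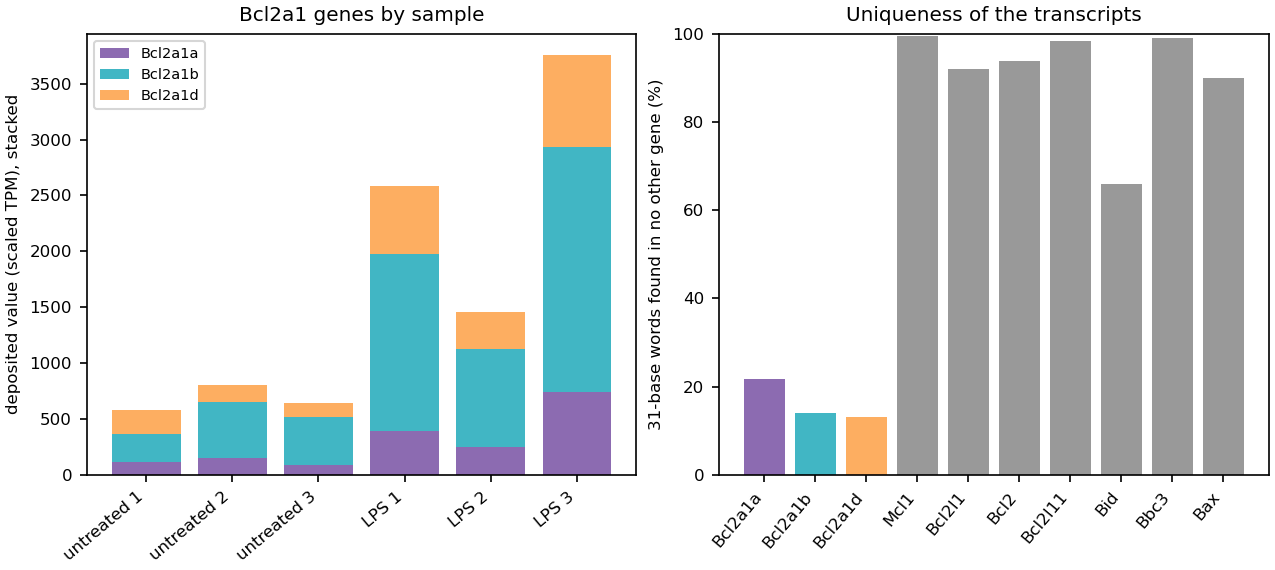
Left, deposited values (scaled TPM) of *Bcl2a1a*, *Bcl2a1b* and *Bcl2a1d* stacked for each sample; right, percent of the 31-base words of each member's transcripts that occur in no other gene. The stacked sum is 583 to 801 in untreated samples and 1455 to 3760 after LPS, and only 13.1% to 21.8% of the words of the *Bcl2a1* genes are unique.

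*Mcl1*, which encodes a short-lived protein that sequesters BIM and BAK, was among the highest members in both groups but did not separate them. It lies at chr3:95566026-95570487, and 99.5% of its words are unique. It was 365, 129 and 429 in untreated samples and 406, 643 and 453 after LPS. Untreated sample 3 exceeded LPS sample 1, and the log2 fold change was 0.85 (SE 0.52, adjusted p = 0.477). It was 0.34 on the protein-coding scale and 0.31 without untreated sample 2.

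*Bcl2l1*, the gene of BCL-XL, had low values in untreated samples and no overlap between groups. It lies at chr2:152622582-152673655. It was 5.93, 6.97 and 0.900 in untreated samples and 13.8, 26.4 and 17.5 after LPS. Untreated sample 3 was well under the others, and the log2 fold change was 2.05 (SE 0.63, adjusted p = 0.167), the only one of the members above 2. Without untreated sample 3 it was 1.40, and with a pseudocount of 5 it was 1.37. Its unadjusted p exceeded the limit of 0.01.

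*Bcl2*, the founding member of the family, was at the bottom of the order. It lies at chr1:106465908-106642060. It was 2.37, 1.23 and 1.24 in untreated samples and 5.19, 1.40 and 4.07 after LPS. LPS sample 2 fell within the untreated range, and the log2 fold change was 0.72 (SE 0.46, adjusted p = 0.493). It was 1.13 without LPS sample 2 and 0.44 without LPS sample 1.

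The groups did not overlap in any of the 3 BH3-only genes. *Bcl2l11*, which encodes BIM, a protein that binds all the anti-apoptotic members, lies at chr2:127967958-128004476. It was 24.4, 36.2 and 21.3 in untreated samples and 78.6, 119 and 99.1 after LPS. Its spread was small in both groups, and it had the lowest adjusted p of the members, 0.0570, at a log2 fold change of 1.84 (SE 0.33). Without untreated sample 2 it passed the limits of the paper, with a log2 fold change of 2.05. On the protein-coding scale the log2 fold change was 1.35, and the groups still did not overlap.

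*Bid*, whose protein links death receptors to the mitochondrion once caspase-8 has cut it, was 2.08, 6.26 and 9.12 in untreated samples and 17.7, 23.1 and 25.8 after LPS. The lowest LPS sample was thus above every untreated sample, and the log2 fold change was 1.91 (SE 0.50, adjusted p = 0.119). Without untreated sample 3 it passed the limits of the paper at 2.28, and without untreated sample 1 it was 1.42. *Bid* (chr6:120862525-120894171) shares 3059 of its 9796 exonic bases with *Bcl2l13* on the opposite strand, and 65.8% of its words are unique. The library was strand-specific, but whether the quantification used strand is not given in the sources used here. *Bcl2l13* was 0.431, 0.679 and 0.979 in untreated samples and 1.19, 1.35 and 2.59 after LPS.

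*Bbc3*, the gene of PUMA and a known target of p53, was 0.274, 4.35 and 2.02 in untreated samples and 4.61, 4.73 and 4.53 after LPS. The LPS samples were nearly equal, whereas the untreated samples spread 15.9-fold. The gap between the groups was only 0.183, the log2 fold change 1.04 (SE 0.56, adjusted p = 0.402), and the groups overlapped on the protein-coding scale. Without untreated sample 1 the log2 fold change was 0.48. The gene lies at chr7:16042318-16052130.

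*Bax*, the pore-forming effector among the members (chr7:45111015-45116325), had the widest spread. It was 92.0, 13.5 and 3.28 in untreated samples and 40.4, 51.5 and 34.3 after LPS. The LPS samples lay inside the untreated range, and the log2 fold change was 1.25 (SE 1.08, adjusted p = 0.553). It was 2.43 without untreated sample 1 and 0.21 without untreated sample 3, so its size depended on single untreated samples. The means differed 1.16-fold.

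**Figure D3:**
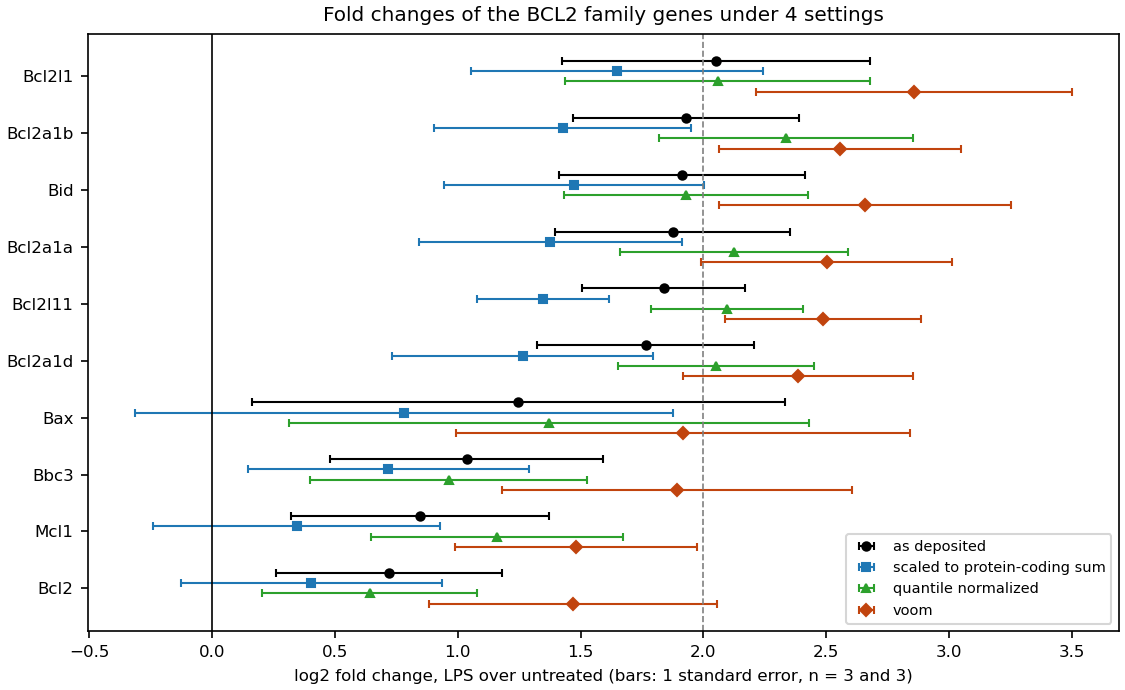
Log2 fold change of each member, LPS over untreated (x axis, bars 1 SE, n = 3 and 3), on the deposited values, after scaling to the protein-coding sum, after quantile normalization and with voom; the dashed line marks a log2 fold change of 2. All points lie above 0, those scaled to the protein-coding sum are the lowest of each member, and the voom points are the highest.

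The members were ordered by mean value in each group. In untreated samples the order was *Bcl2a1b*, *Mcl1*, *Bcl2a1d*, *Bcl2a1a*, *Bax*, *Bcl2l11*, *Bid*, *Bcl2l1*, *Bbc3* and *Bcl2*, and *Bcl2l11* and *Bid* were the only neighbours whose sample ranges did not overlap. After LPS the order was *Bcl2a1b*, *Bcl2a1d*, *Mcl1*, *Bcl2a1a*, *Bcl2l11*, *Bax*, *Bid*, *Bcl2l1*, *Bbc3* and *Bcl2*. Here the ranges of *Bcl2a1b* and *Bcl2a1d*, of *Bcl2a1a* and *Bcl2l11*, of *Bcl2l11* and *Bax*, of *Bax* and *Bid*, and of *Bcl2l1* and *Bbc3* were separate. These levels are per length but are means over transcripts, so a gene with many annotated transcripts is set low. *Bcl2a1b* exceeded 99.6% of the protein-coding genes in the table in untreated samples and 99.9% after LPS. *Bcl2* exceeded 67.7% and 75.9%.

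**Figure D4:**
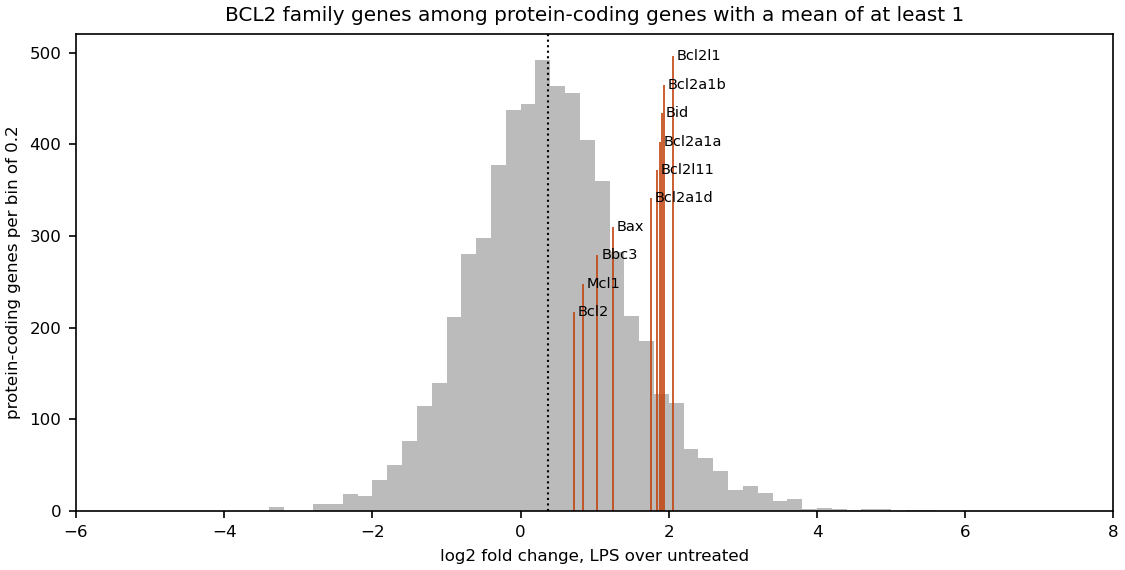
Histogram of log2 fold changes, LPS over untreated, of 5894 protein-coding genes with a mean of at least 1 (y axis, genes per bin), with the members as vertical lines whose heights carry no meaning; the dotted line is the median of 0.37. All members lie to the right of the median, from *Bcl2* at 0.72 to *Bcl2l1* at 2.05.

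Ratios between members within a sample do not depend on the scaling of that sample, apart from the added 1. For 9 pairs the log2 ratio was compared with a two-sided exact permutation test, which cannot go below p = 0.1 with 3 samples against 3. The groups overlapped in all 9 pairs, the smallest p was 0.3 and all adjusted values were 1. The log2 ratio of *Bcl2l11* to *Mcl1* was -3.85, -1.81 and -4.27 in untreated samples and -2.35, -2.42 and -2.18 after LPS. Untreated sample 2 was above every LPS sample, and the means differed by 0.99 (exact permutation p = 0.4). The log2 ratio of *Bid* to *Mcl1* was -6.89, -4.16 and -5.41 in untreated samples and -4.44, -4.74 and -4.09 after LPS (exact permutation p = 0.3). In 8 of the 9 pairs the SD was smaller after LPS than in untreated samples, *Mcl1* over *Bcl2* being the exception. The pairs are not separate results. *Mcl1*, with its low value of 129 in untreated sample 2, is in most of them, and the rest are between *Bcl2a1* copies. Taken singly, 6 of the 10 members had a smaller ratio of highest to lowest sample after LPS. The share of other gene pairs with a smaller SD was not counted.

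**Figure D5:**
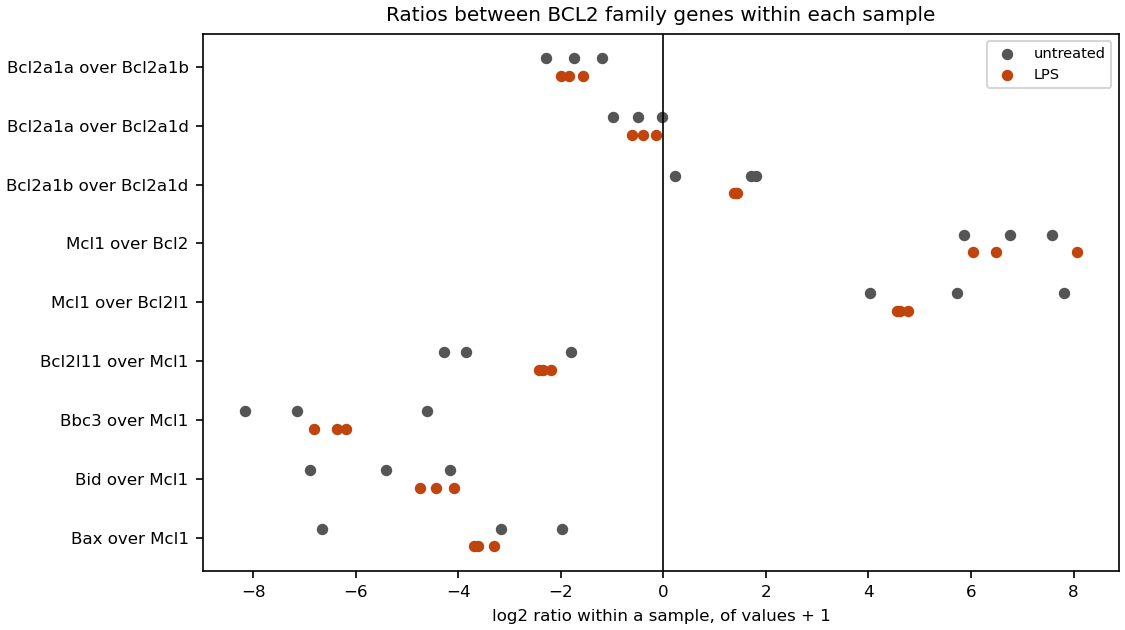
Log2 ratio of values + 1 (x axis) for 9 pairs of members, each point 1 sample, untreated above and LPS below in each pair. The LPS points are closer together than the untreated points in 8 pairs, which share genes with one another, and the groups overlap in all 9.

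The samples with the replicate number 2 differed from the others of their group in some neutrophil genes. The neutrophil markers (13 of 15 in the table) summed to 9660 to 28415 in untreated samples and 16033 to 54611 after LPS, with sample 2 the highest in each group. This sum was mostly *S100a8* and *S100a9*, and the median log2 fold change of the list was -0.28, with 3 genes lower and 0 higher without overlap (*Csf3r*, *Cxcr2* and *Ltf* lower). *S100a8*, a calcium-binding protein abundant in neutrophils, was 8405 in untreated sample 2 and 19851 in LPS sample 2. *Camp*, a granule peptide gene, went the other way in the untreated group, with 1.16 in sample 2 against 24.1 and 9.18. In untreated sample 2 *Mcl1* was the lowest of its group, and in LPS sample 2 *Mcl1* was the highest and the *Bcl2a1* genes the lowest. *Cxcr2*, a chemokine receptor of neutrophils, was called lower (log2 fold change -2.67, SE 0.62, adjusted p = 0.0944). *Mpo*, a gene of neutrophil precursors, was under 1 in every sample, and *Elane* was listed at 0.

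Markers of other cells were also present. Macrophage and monocyte markers (9 of 12 in the table) summed to 169 to 199 in untreated samples and 270 to 415 after LPS, mostly *Cd68*, and *C1qb* was called higher (log2 fold change 2.62, SE 0.50, adjusted p = 0.0642). In the same list 2 genes were higher and 2 lower without overlap, and *Ccr2*, a chemokine receptor of monocytes, was 9.75, 4.48 and 2.57 in untreated samples and 1.68, 0.581 and 1.40 after LPS. *Cd163* was under 1 in every sample. Lymphocyte markers (10 of 12) summed to 156 to 555 and 71.3 to 245, led by the B cell genes *Cd79a* and *Cd79b*. Mast cell and eosinophil markers (7 of 7) summed to 6.59 to 41.4 and 5.77 to 50.1, with *Epx* listed at 0. Mesothelial markers (4 of 7) summed to 0.118 to 0.811 and 0.239 to 0.771. The part of these cells, or of the neutrophil differences, in the members' values was not tested, and in such bulk samples fewer cells of a type and less RNA per cell cannot be told apart.

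Other genes of the pathway were counted by list. Of 17 further BCL2 family genes, 10 were in the table and 8 had a value above 0. *Bak1*, *Bad*, *Bik*, *Pmaip1*, *Bcl2l2*, *Bnip3l* and *Bcl2l16* were not in the table, which does not show that they were not expressed. None of the 8 was called, and their median log2 fold change was 0.16. The largest were 0.65 for *Bcl2l13* and -0.59 for *Bnip3*. Of the 10 in the table, 6 were under 1 in every sample, 2 of them at 0. The added 1 keeps the fold changes of such low values near 0. Without overlap 2 were higher (*Bcl2l13* and *Bcl2l14*) and 0 lower, against 13.1% and 9.75% of all genes. *Bcl2a1c*, a further copy of the *Bcl2a1* group, was 0.645 in LPS sample 1 and listed at 0 elsewhere. Of 18 genes of mitochondrial release and caspases, 12 were tested and none was called (median 0.11). *Vdac3*, a channel of the outer mitochondrial membrane, had a log2 fold change of 2.39 (adjusted p = 0.201) and *Vdac1* 1.07. Of 16 genes of protein turnover, 8 were tested and none was called (median 0.08). *Bag3*, a co-chaperone, had a log2 fold change of 0.99 and *Gsk3a*, a kinase, 0.81.

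Of 20 transcription factors known to act on BCL2 family genes, 15 were tested, 2 were called higher and none lower, and 13 had a positive log2 fold change (median 1.05). *Nfkb1*, which encodes the NF-κB subunit p50, rose from 9.54, 6.03 and 6.99 in untreated samples to 45.6, 43.0 and 51.1 after LPS (log2 fold change 2.50, SE 0.29, adjusted p = 0.0217). *Rel*, a subunit known to act on *Bcl2a1* and *Bcl2l1*, was 21.3, 30.7 and 10.6 in untreated samples and 97.0, 69.9 and 108 after LPS (2.17, SE 0.45, adjusted p = 0.0738). Scaled to the protein-coding sum, *Nfkb1* was at 2.03 and *Rel* at 1.69, below the fold limit. Below the fold limit, *Stat5a* had a log2 fold change of 1.99 (adjusted p = 0.0410) and *Cebpb* 1.58 (adjusted p = 0.128). *Trp53*, the gene of p53, was 4.96, 2.11 and 1.94 in untreated samples and 13.6, 5.82 and 12.5 after LPS.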

How the data were processed

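RNA sequencing values of peritoneal neutrophils from cGAS-/- mice were analysed, 3 untreated and 3 after LPS, grouped by sample title and treatment label. Per the labels, libraries were strand-specific and paired-end, and the submitters' processing notes name fastp, STAR, kallisto, GRCm39 and mm10, while the methods of the paper name STAR, Kallisto, edgeR and limma-voom. The annotation release is not given in the sources used here. The deposited values were taken as TPM that the authors turned into 1 mean per gene over its transcripts and scaled per sample. In untreated sample 3, 98.2% of 2334 genes with 1 transcript but 27.1% of 5501 genes with more had at most 6 digits. They are not counts, so depth is unknown and the main fit is not a count test. Voom, which is made for counts, was run on them only as an alternative.

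The 23049 genes above 0 in any sample were tested with limma 3.58.1 in R 4.3.3 (eBayes with trend, two-sided, no covariates) on log2(value + 1). Within-sample ratios were compared with exact permutation tests (scipy 1.17.1, 9 pairs, Benjamini-Hochberg adjusted). Python 3.11.15, pandas 2.3.3 and matplotlib 3.10.9 were also used. Gene types, positions and 31-base words came from GENCODE M39 (35599 genes matched by name, 983 by identifier, 2157 unmatched) and promoters from RefSeq. The coordinates of the promoters are those of GRCm38.p6 and were not converted. The fit was also run on simulated data, with changes larger than those of the members and in genes of small spread. That run does not show how well the fit finds differences of the members' size. All members are named. Of each pathway list, the called genes (at most 6) and the 2 largest others are named, and *Trp53*, *Bcl2a1c* and the cell markers named were chosen after their values were seen. Members and lists were chosen with earlier results of these data known. Alternatives were pseudocounts of 0.1 and 5, a mean of at least 1, no filter, protein-coding sum scaling, median centring on protein-coding genes, quantile normalization, eBayes without trend, the replicate block, other call rules and leaving out each sample. Protein-coding genes alone, voom, an unadjusted p under 0.05 and the overlap of groups with a sample left out were added after seeing the data.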

Additional observations from a re-analysis of the deposited data

How the results depend on the processing

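All 10 members kept a positive log2 fold change in every one of 17 alternative fits (170 of 170 values), which reuse the same samples. Several of these fits could not change a fold change and repeat the main values. They are a mean of at least 1, no filter, eBayes without trend, the replicate block and protein-coding genes alone. How many of all genes kept their direction was not counted. The number of members called higher was 0 in the report, 4 with quantile normalization, 6 with voom and 6 at an unadjusted p under 0.05. It ranged from 0 to 3 with a sample left out. Quantile normalization called 401 of all genes higher. Voom, which the paper names and which is made for counts, put the median of the protein-coding genes at 1.10 and called 1552 genes higher and 177 lower. Genes called higher (389) became 856 with a pseudocount of 0.1, 129 with 5, 220 with protein-coding sum scaling, 206 at an adjusted p under 0.05 and 2370 at an unadjusted p under 0.05, and ranged from 238 to 434 with a sample left out. The low end was without LPS sample 3. Genes called lower (301) became 493, 168, 522 and 1535 under the first 3 and the last of these, 495 with protein-coding median centring and 45 among protein-coding genes with a mean of at least 1. In the fit to protein-coding genes alone 4 members had an adjusted p under 0.05: *Bcl2a1a* (0.0490), *Bcl2a1b* (0.0364), *Bcl2a1d* (0.0486) and *Bcl2l11* (0.0321). With voom 7 had one, with a mean of at least 1 there were 2 (*Bcl2a1b* and *Bcl2l11*), with median centring 2, and with quantile normalization, eBayes without trend or without untreated sample 2 there was 1 (*Bcl2l11*). How many of all genes had an adjusted p under 0.05 in each of these fits is not given here. These counts of members thus have no background beside them. The cause of these shifts was not tested.

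The groups did not overlap in 7 to 9 members with a sample left out, against 14.9% to 20.2% of all genes. The highest was without untreated sample 1, where *Bcl2* and *Bax* were added. The *Bcl2a1* copies are in each of these counts of members and are not separate results. The sum of the *Bcl2a1* genes differed by 1.85 on the log2 scale. Multiplying by the number of annotated transcripts kept 5 of 10 places in the order of untreated levels and 8 of 10 after LPS. The labels do not say that replicate numbers pair samples, and deviations of same-numbered samples correlated at 0.0935, 0.199 and 0.0835, each the highest for its sample. With the replicate block 0 members were called, and 387 genes were higher and 303 lower. With 3 samples a group and unknown depth, low values such as those of *Bcl2* and *Bbc3* have no known counting error, and a missed threshold does not show that a gene did not differ.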
